A study of Oryza sativa with 6 samples.

Results

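The genes described here are 41 nuclear rice loci of the photosynthetic apparatus, read in roots. Each was taken by its locus name, whatever its signal, among the 25727 genes that had an Affymetrix probe set of their own, and where a locus had several probe sets, the brightest on average stands for it. They fall into 7 groups by role: 7 light-harvesting proteins of photosystem II (LHCB), 5 of photosystem I (LHCA), 4 subunits of photosystem II, 8 of photosystem I, 7 loci listed with the electron carriers and ATP synthase, 4 loci of the Rubisco small subunit and Rubisco activase, and 6 other Calvin cycle enzymes. Of the 41, 40 had an entry in the reference gene table. The other, Os02g0750100, is listed with the electron carriers and is given by its locus alone.

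In a green cell, light-harvesting proteins pass excitation to the photosystems, which split water and drive electrons through plastocyanin and ferredoxin to make NADPH, while the ATP synthase uses the proton gradient. The Calvin cycle spends both products to fix carbon dioxide through Rubisco. The proteins described here are encoded in the nucleus and imported into plastids, and their genes are best known from leaves; roots hold mostly non-green plastids, which can turn green in the light.

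Total RNA from roots of 2 rice varieties, Varadan and Prasanna, was hybridised to 6 arrays. Seedlings germinated for 7 days, grew for 10 days in Yoshida medium with nitrogen and were then moved to that medium without nitrogen or with supplemented nitrogen, and the labels give their age as 14 days. Each variety had 1 array without nitrogen and 2 with nitrogen, so the groups were Varadan without nitrogen (1 array), Varadan with nitrogen (2), Prasanna without nitrogen (1) and Prasanna with nitrogen (2). Whether the 2 arrays of a group hold RNA of separate cultures is not in the labels, so the spread between arrays behind the p-values may be only technical. Where both varieties are fitted with a shared nitrogen term, that spread also takes in any difference between their nitrogen responses. All 4 groups shared the hydroponic culture and the earlier supply of nitrogen, and the groups of a variety shared its genotype.

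Values are log2 MAS5 signals, scaled by the authors to the same trimmed mean on every array. Probe sets differ in how they bind, so levels are compared between arrays for 1 gene and never between genes. Root tissue was present on all 6 arrays. RCC3, LSI1 and LSI2, a root protein gene and a pair of silicon transporters, read between 13.57 and 15.21. The summed linear signal of 5 root genes was 58701 to 87159 on the Varadan arrays and 56936 to 74035 on the Prasanna arrays. For 3 replication genes of dividing tips it was 3073 to 5540 in Varadan and 3534 to 5485 in Prasanna. The 2 arrays of a group correlated over the tested probe sets at r = 0.909 in Varadan and 0.925 in Prasanna.

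One point about the arrays comes before any result. The deposited data hold the same signals in 2 tables, and the columns of 2 arrays are exchanged between them: the array named Varadan without nitrogen in the log2 table is named Varadan with nitrogen, replicate 1, in the series matrix, and the reverse. No source used here says which is right. Arrays are called below by their names in the log2 table, and a nitrogen value holds for these names unless the exchanged names are stated. The value with the exchanged names is given beside the nitrogen results that the text turns on. The variety difference has the same value under both namings, since the exchange stays within Varadan.

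Apart from LHCA2 and PSAL, the 41 genes read above background on all 6 arrays, on the brightest probe set of each locus. The median of the 41 was 12.19 on the Varadan array without nitrogen, 11.17 and 10.17 on the Varadan arrays with nitrogen, 10.36 on the Prasanna array without nitrogen and 10.22 and 9.83 on the Prasanna arrays with nitrogen. Over all 34316 tested probe sets, brightest of their locus or not, the median stayed between 7.93 and 8.03 from array to array. Of the 41 genes, 40 passed the filter on low signal and could be tested. LHCA2, a light-harvesting protein of photosystem I, did not pass it, and none of its 6 readings reached its own array's 40th percentile (4.89 to 5.42), the level taken here as background.

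In 39 of the 41 genes the highest reading was that of the Varadan array without nitrogen, which was so for 21.9% of all tested probe sets. In 36 of the 41 both this array and Varadan replicate 1 with nitrogen read above the other arrays, against 7.19% of all tested probe sets. The exceptions were LHCB6, LHCA2, PSAL, PETC and FBPase. Varadan replicate 2 with nitrogen read within the range of the 3 Prasanna arrays for 24 genes, above it for 13 and below it for 4. The high readings of Varadan stood mainly on 2 of its 3 arrays.

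**Figure D1:**
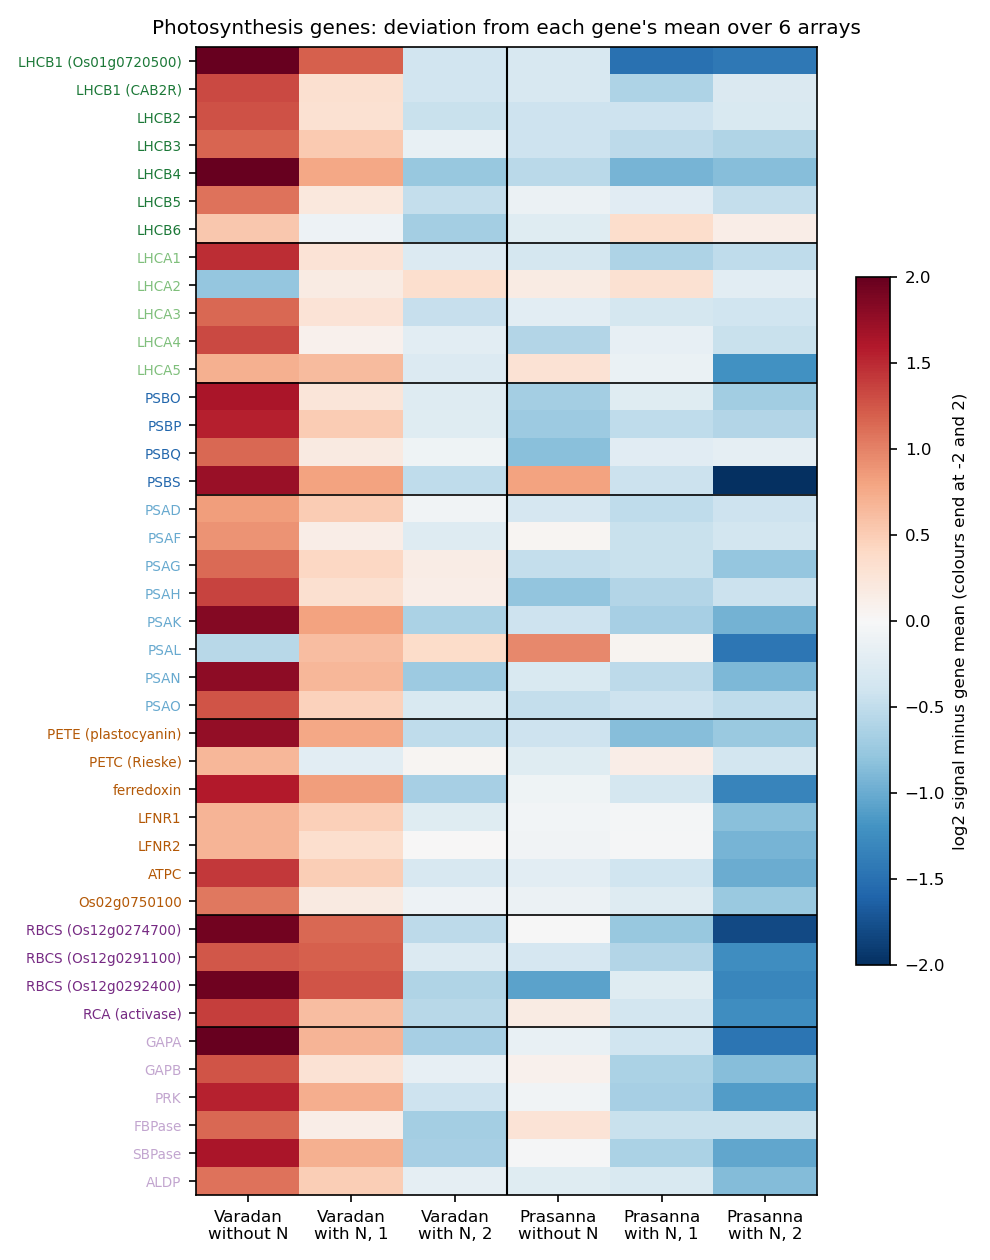
Log2 signal of each of the 41 photosynthesis genes on each of the 6 arrays (columns, named as in the log2 table) minus that gene's mean over the 6 arrays; label colours mark the 7 groups of genes, and horizontal lines separate them. The Varadan array without nitrogen is the highest for 39 genes, and it and Varadan replicate 1 with nitrogen are above all others for 36. LHCB6, PSAL and LHCA2 follow the other genes least (r = 0.38, 0.11 and -0.63 with the mean of the others), and LHCA2 reads below background on every array.

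The variety difference was compared over 3 Varadan and 3 Prasanna arrays, with the nitrogen supply as a term in the model. The 41 genes read higher in Varadan by a median of 0.95 log2, and 39 of the 41 had a difference above 0, against 49.3% of all tested probe sets. None passed the adjusted threshold of 0.05 in limma, where 0.95% of all tested probe sets were higher in Varadan. At an unadjusted p under 0.05, 28 genes were higher in Varadan and 0 lower, beside 5.31% and 5.41% of all tested probe sets. The smallest adjusted p of these genes was 0.0575.

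Of the light-harvesting proteins, LHCB1 of locus Os01g0720500, a main antenna protein of photosystem II, read 12.83, 11.60 and 10.03 on the Varadan arrays (without nitrogen, then replicates 1 and 2 with it), against 10.09, 8.92 and 8.98 on the Prasanna arrays in the same order. The groups overlapped only where Varadan replicate 2 read just under the Prasanna array without nitrogen. The difference was 2.16 ± 0.41 log2 (SE), or 4.46-fold, the largest of the 41 genes, with a limma adjusted p = 0.0617. CAB2R, another LHCB1 locus, read 15.35, 14.35 and 13.65 in Varadan, against 13.71, 13.42 and 13.74 in Prasanna. Its second Varadan array with nitrogen lay within the Prasanna range.

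LHCB4, a minor antenna protein that links the main antenna to the core, read 12.70, 11.17 and 9.64 in Varadan, against 9.85, 9.46 and 9.54 in Prasanna, a difference of 1.55 ± 0.51 log2 (SE). LHCB6, the outermost of the minor antenna proteins, was the exception among the tested genes. It read 12.69, 12.05 and 11.47 in Varadan, against 11.90, 12.50 and 12.29 in Prasanna, a difference of -0.16 ± 0.32 log2 (SE). Its groups overlapped. The other antenna genes of photosystem II, LHCB2, LHCB3 and LHCB5, had differences of 0.75, 1.03 and 0.55 log2.

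The LHCA genes, the antenna of photosystem I, had differences below 1 log2. LHCA3 read 13.69, 12.82 and 12.08 in Varadan, against 12.33, 12.19 and 12.15 in Prasanna, 0.64 ± 0.29 log2 (SE) higher, and LHCA4 read 13.01, 11.78 and 11.48 in Varadan, against 11.11, 11.53 and 11.24 in Prasanna, 0.80 ± 0.34 log2 higher. Varadan replicate 2 lay below the Prasanna range for LHCA3 and inside it for LHCA4. LHCA1 was higher by 0.99 log2 with groups that did not overlap, and LHCA5 by 0.71 with groups that did.

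In photosystem II itself, PSBO, the protein that stabilises the manganese cluster of water splitting, read 13.30, 11.90 and 11.40 in Varadan, against 10.98, 11.41 and 10.97 in Prasanna, 1.08 ± 0.39 log2 (SE) higher. PSBQ, another protein of the oxygen-evolving complex, read 11.74, 10.76 and 10.50 in Varadan, against 9.75, 10.36 and 10.40 in Prasanna, 0.83 ± 0.35 log2 higher. For PSBQ, and for PSBP (1.22 log2), every Varadan array lay above every Prasanna array.

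In photosystem I, PSAG, a peripheral subunit on the antenna side, read 12.78, 12.07 and 11.80 in Varadan, against 11.18, 11.21 and 10.88 in Prasanna. All Varadan arrays lay above all Prasanna arrays, by at least the gap between 11.80 and 11.21. The difference was 1.13 ± 0.21 log2 (SE), or 2.18-fold, with the smallest adjusted p of the 41 genes (limma, 0.0575). PSAN, a subunit on the lumen side, read 13.51, 12.38 and 10.99 in Varadan, against 11.41, 11.20 and 10.82 in Prasanna, 1.15 ± 0.43 log2 higher. Here Varadan replicate 2 lay within the Prasanna range. PSAD, PSAH and PSAO, which help to dock ferredoxin or the mobile antenna, were higher by 0.84, 1.20 and 0.94 log2, all with groups that did not overlap.

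Plastocyanin (PETE), which carries electrons to photosystem I, read 14.81, 13.82 and 12.54 in Varadan, against 12.64, 12.20 and 12.31 in Prasanna, 1.34 ± 0.38 log2 (SE) higher. Ferredoxin, the acceptor on the other side of photosystem I, read 12.42, 11.67 and 10.17 in Varadan, against 10.76, 10.49 and 9.52 in Prasanna, 1.16 ± 0.44 log2 higher. Both had an overlap between the varieties, again through Varadan replicate 2. The ferredoxin-NADP reductases LFNR1 and LFNR2, the Rieske protein PETC, the ATP synthase subunit ATPC and Os02g0750100 were higher by 0.32 (PETC) to 1.06 log2 (ATPC).

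The Rubisco small subunit loci had the highest group median, 1.58 log2 for the group with activase. The locus Os12g0274700 read 14.50, 13.72 and 12.05 in Varadan, against 12.56, 11.81 and 10.77 in Prasanna, 1.71 ± 0.46 log2 (SE) or 3.27-fold higher. Rubisco activase (RCA), which frees inhibited active sites, read 14.28, 13.51 and 12.34 in Varadan, against 13.07, 12.54 and 11.66 in Prasanna, 0.95 ± 0.35 log2 higher. In both genes the Prasanna array without nitrogen read above Varadan replicate 2. The small subunit genes are close copies of each other, and 2 of their 3 probe sets are of a type that can bind related transcripts, so their signals may be shared.

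Among the other Calvin cycle enzymes, plastid aldolase (ALDP) read 11.79, 11.20 and 10.53 in Varadan, against 10.46, 10.40 and 9.83 in Prasanna. Every Varadan array was above every Prasanna array, and the difference was 0.95 ± 0.27 log2 (SE). GAPA, a subunit of the plastid glyceraldehyde phosphate dehydrogenase, read 12.14, 10.84 and 9.48 in Varadan, against 10.00, 9.76 and 8.70 in Prasanna, 1.34 ± 0.47 log2 higher. The lowest difference of this group was 0.40 log2, for FBPase, the plastid fructose bisphosphatase, and the other members, GAPB, SBPase and PRK, read 0.93, 1.13 and 1.24.

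In 12 of the 41 genes all 3 Varadan arrays lay above all 3 Prasanna arrays, against 6.66% of all tested probe sets, and in 0 all 3 lay below, against 6.8%. The difference was at least 1 log2 in 19, against 8.2%. The 12 came from every group: LHCB3, LHCA1, PSBP, PSBQ, PSAD, PSAG, PSAH, PSAO, LFNR2, Os02g0750100, the small subunit locus Os12g0291100 and ALDP. This holds for the probe sets used. The varieties overlapped on another tested probe set of LHCB3, PSAG, LFNR2 and ALDP, with a difference of -0.43 log2 for that of LHCB3. They did not overlap on the other probe set of Os02g0750100 and of Os12g0291100, nor on the further ones of LHCB3. Over the 40 tested genes the median difference was 0.74 to 1.27 log2 when single arrays were left out. The 0.74 came both without the Varadan array without nitrogen and without the Prasanna array without nitrogen. In the series matrix without the signals of the highest array, an alternative chosen after seeing the data, it was 0.48 log2, with 1 gene called (LHCB1 of Os01g0720500, 1.26 ± 0.20 log2, limma adjusted p = 0.0165, against 1.58% of all tested probe sets). Without Varadan replicate 2 the median was 1.27 log2 and 9 genes rose past the limma threshold, against 0.56% of all tested probe sets. These were LHCB1 of Os01g0720500 (2.69 log2), LHCB4 (2.17), PSAK (1.89), PSAN (1.68), PETE (1.82), the small subunit loci Os12g0274700 (2.22) and Os12g0291100 (1.88), PRK (1.61) and SBPase (1.60).

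The arrays also differed in technical measures. The GAPDH 3' minus 5' difference, a sign of RNA quality, was 4.77, 4.38 and 4.41 log2 on the Varadan arrays, against 3.06, 3.52 and 3.11 on the Prasanna arrays, so the varieties did not overlap. For actin it was 5.76, 5.83 and 5.15 in Varadan, against 5.23, 5.18 and 5.15 in Prasanna, and for cyclophilin 1.83, 1.34 and 1.62 in Varadan, against 1.46, 1.54 and 1.39 in Prasanna, both with varieties that overlapped. The mean of 42 probe sets for Bacillus spike-in RNA was 9.83, 8.47 and 7.07 in Varadan, in the same order of arrays as the photosynthesis genes, against 9.74, 9.83 and 8.93 in Prasanna. The part of any of these in the differences was not tested. In bulk tissue, fewer cells of a type and less RNA per cell cannot be told apart.

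**Figure D2:**
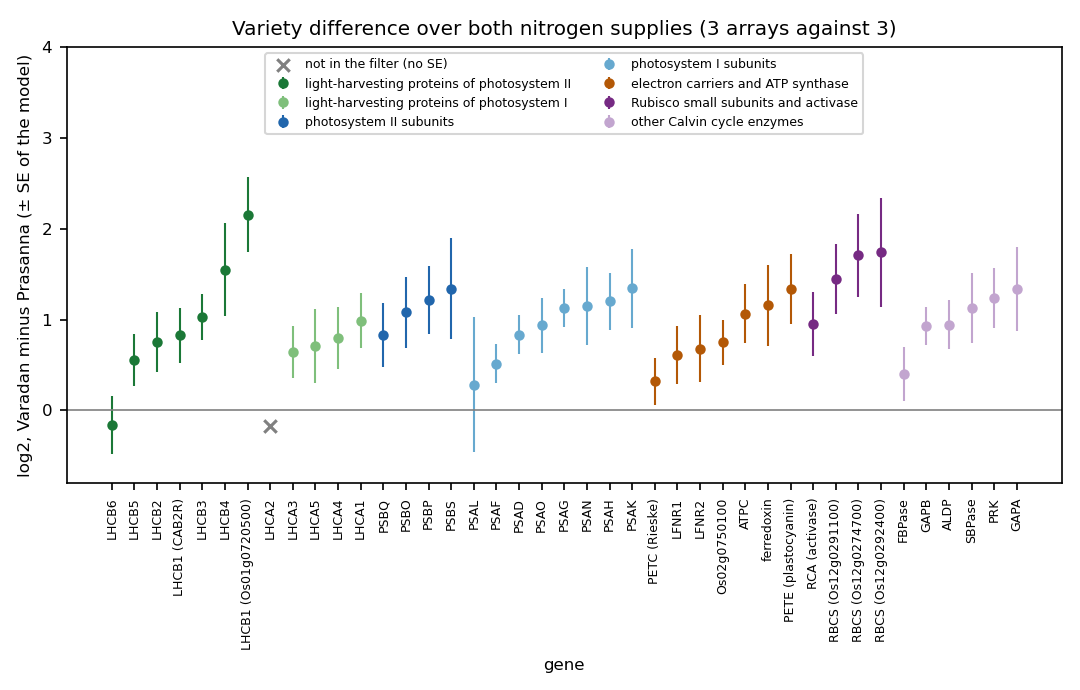
Difference between Varadan and Prasanna (log2, 3 arrays each, nitrogen supply in the model) for each of the 41 photosynthesis genes, ordered within each group; bars are the standard error of limma's fit, and LHCA2 was below the filter and has none. All genes except LHCB6 and LHCA2 lie above 0, and LHCB1 of Os01g0720500 is the highest at 2.16.

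The nitrogen response over both varieties compared 2 arrays without nitrogen with 4 arrays with it, variety being a term in the model. With names as in the log2 table, 40 of the 41 genes read higher without nitrogen, against 49.9% of all tested probe sets, and their median difference was 0.71 log2. None passed the adjusted threshold in limma, as for 0% of all tested probe sets, and the smallest adjusted p was 0.123. At an unadjusted p under 0.05, 18 genes were higher without nitrogen and 0 lower, beside 8.58% and 13% of all tested probe sets. With the exchanged names the median was 0.18 log2, and 28 of the 40 tested genes were above 0, against 48.8% of all tested probe sets. At an unadjusted p under 0.05 there were then 0 higher and 0 lower, beside 3.25% and 3.49%.

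Markers of root tissue had nitrogen differences as well. The 3 replication genes were all below 0, with a median of -0.65 log2, and MCM2, a helicase subunit of replication origins, had the lowest, -1.06 ± 0.24 log2 (SE; limma adjusted p = 0.123). Their summed linear signal was 3073 in Varadan and 3534 in Prasanna without nitrogen, against 5540 and 5012 in Varadan and 3535 and 5485 in Prasanna with nitrogen. The 5 root genes were all above 0, with a median of 0.24 log2, and LSI2 had 0.94 ± 0.19 log2 (SE; limma adjusted p = 0.123). With the exchanged names the replication genes had a median of -0.02 log2 and LSI2 a difference of 0.52. None of these genes passed the adjusted threshold, and their part in the nitrogen results was not tested.

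The 18 genes included 5 of the 6 other Calvin cycle enzymes, 4 of the 7 electron carrier loci and 3 of the 7 LHCB genes. GAPB, the partner subunit of GAPA, had the smallest adjusted p. It read 11.09 without nitrogen and 10.13 and 9.68 with nitrogen in Varadan, and 9.92 without nitrogen and 9.20 and 8.99 with nitrogen in Prasanna. Within each variety the array without nitrogen was the highest, and the difference over both was 1.01 ± 0.22 log2 (SE), or 2.01-fold (limma adjusted p = 0.123). With the exchanged names it was 0.29 ± 0.45 log2. With the varieties pooled, 1 gene had both arrays without nitrogen above all 4 with it, beside 14.1% of all tested probe sets. This was FBPase, at 9.68 in Varadan and 8.81 in Prasanna without nitrogen, against 8.67 and 7.84 in Varadan and 8.08 and 8.09 in Prasanna with nitrogen. Its difference over both varieties was 1.07 log2, and 0.31 with the exchanged names.

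PSBS, which senses lumen acidity and lets excess light energy escape as heat, had the largest difference, 1.89 ± 0.59 log2 (SE) or 3.70-fold (limma adjusted p = 0.152). It read 11.96 without nitrogen and 11.05 and 9.73 with nitrogen in Varadan, and 11.04 without nitrogen and 9.80 and 7.86 with nitrogen in Prasanna. The replicates with nitrogen lay 1.32 log2 apart in Varadan and 1.94 log2 apart in Prasanna, and the gap in Prasanna was larger than the difference of 1.89. The difference of PSBS with the exchanged names was 1.21 ± 0.81 log2, again the largest of the tested genes. LHCB6 had the smallest difference, 0.22 ± 0.34 log2, and -0.26 with the exchanged names.

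Calls depended on Varadan replicate 1 with nitrogen, which carries one of the exchanged names. Without it the median over the 40 tested genes was 0.80 log2 and 8 genes rose past the limma threshold, against 5.96% of all tested probe sets: PSBS (2.22 log2), LHCB1 of Os01g0720500 (1.85), the small subunit locus Os12g0274700 (1.77), SBPase (1.46), RCA (1.39), PRK (1.30), FBPase (1.20) and GAPB (1.08). Their adjusted p ran from 0.018 to 0.0447. In the series matrix without its Varadan with nitrogen array 1, the alternative added later, 5 genes rose, against 4.26% of all tested probe sets: Os12g0274700 (1.44 log2), LHCB1 of Os01g0720500 (1.33), SBPase (1.06), RCA (1.06) and PRK (0.95). These 5 were also among the 8. Both settings share every array except the one called Varadan without nitrogen, so the overlap is not an independent check. The 5 are carbon fixation genes except for LHCB1.

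Each variety had its own response, from 1 array without nitrogen against 2 with it, the lone array being assumed to vary like the replicate pairs. In Varadan the median of the 41 genes was 1.33 log2 higher without nitrogen. The array without nitrogen read above both arrays with nitrogen for 39 genes, against 37.9% of all tested probe sets, and below both for LHCA2 and PSAL, against 38.2%. Of the 41, 39 were above 0, against 50.8%, and 28 differed by at least 1 log2, against 15.7%. In Prasanna the median was 0.38 log2, with 31 genes above 0, against 49.2%, and the array without nitrogen read above both others for 26 genes, against 36.9%, and below both for 6, against 41.4%. At least 1 log2 was reached in Prasanna by 4 genes, against 14.8%: LHCB1 of Os01g0720500, PSBS, PSAL and Os12g0274700. PSAL is counted by the rule alone, since its Prasanna replicate 2 read below the 40th percentile of its array. No gene passed the adjusted threshold in limma in either variety (0% of all tested probe sets in both); at an unadjusted p under 0.05 there were 27 higher and 0 lower in Varadan (4.47% and 8.29% of all), and 1 higher, GAPB, and 0 lower in Prasanna (4.73% and 6.88%). Without Varadan replicate 1, which leaves 1 array against 1, 4 genes rose in Varadan past the limma threshold, against 0.379% of all tested probe sets: LHCB4 (3.05 log2), LHCB1 of Os01g0720500 (2.80), PSAK (2.48) and PETE (2.27). There the spread came from the Prasanna pair alone.

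The groups of genes differed in where these responses lay. In Varadan all 7 group medians were between 1.02 log2 (electron carriers) and 1.50 log2 (photosystem II subunits). In Prasanna they were 0.80 log2 for the other Calvin cycle enzymes and 0.78 for Rubisco and activase, 0.39 for the electron carriers and 0.26 for photosystem I subunits. For the light-harvesting groups they were 0.16 (LHCB) and 0.15 (LHCA), and for the photosystem II subunits -0.20. The Prasanna medians depended on the replicate. Without replicate 1 and without replicate 2 they were 1.16 and 0.40 for Rubisco and activase, and 0.98 and 0.60 for the other Calvin cycle enzymes. In the same order they were 0.78 and 0.15 for the electron carriers, 0.19 and 0.12 for LHCB, and -0.07 and -0.32 for photosystem II subunits. The carbon fixation groups stayed highest, while the electron carriers did not keep their place. The 2 varieties had no control array in common.

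All 6 of the other Calvin cycle enzymes read higher without nitrogen in both varieties on the probe sets used. Their differences were 0.93 to 1.98 log2 in Varadan and 0.35 to 0.83 log2 in Prasanna. GAPA, the largest of them in Varadan, read 12.14 without nitrogen and 10.84 and 9.48 with it, and in Prasanna 10.00 without nitrogen and 9.76 and 8.70 with it. The array without nitrogen was the highest of its variety in each case. ALDP, the smallest in both varieties, differed by 0.93 log2 in Varadan and 0.35 log2 in Prasanna. On its other probe set ALDP differed by 0.47 log2 in Varadan and -0.05 log2 in Prasanna. The 6 Varadan differences were between -0.25 (GAPB) and 0.22 log2 (SBPase) with the exchanged names, 4 of them above 0.

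Of the Rubisco group, Os12g0274700 differed by 1.61 log2 in Varadan and 1.27 in Prasanna, and RCA by 1.36 in Varadan and 0.97 in Prasanna. The small subunit locus Os12g0292400 was an exception in Prasanna on the probe set used. It read 14.13 without nitrogen and 13.44 and 11.58 with nitrogen in Varadan. In Prasanna it read 11.11 without nitrogen and 11.93 and 10.88 with nitrogen. There the array without nitrogen lay between the replicates, -0.30 log2 from their mean. Other tested probe sets of this locus, of lower signal, had Prasanna differences of 1.47 and 0.91 log2. The 4 loci of this group were all above 0 in Varadan with the exchanged names too, from 0.20 (RCA) to 0.70 log2 (Os12g0291100).

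With names as in the log2 table, the water-splitting proteins and several antenna genes had opposite signs in the 2 varieties on the probe sets used. PSBO was 1.65 log2 higher without nitrogen in Varadan and differed by -0.21 in Prasanna, PSBP by 1.43 in Varadan and -0.18 in Prasanna, and PSBQ by 1.11 in Varadan and -0.63 in Prasanna. For PSBQ the Prasanna array without nitrogen, at 9.75, read below both arrays with nitrogen, at 10.36 and 10.40. LHCB6 differed by 0.93 log2 in Varadan and -0.49 in Prasanna, and LHCA4 by 1.38 in Varadan and -0.27 in Prasanna. All 5 were below 0 in Varadan too with the exchanged names, at -0.45 (PSBO), -0.14 (PSBP), -0.36 (PSBQ), -0.02 (LHCB6) and -0.47 (LHCA4), so the opposite signs were there under 1 naming only. Other tested probe sets had Prasanna differences of -0.44, -0.29, 0.40 and 2.38 log2 for PSBO and 0.01 and 1.36 for LHCB6. The 2.38 and 1.36 came from low signals. LHCA4 had -0.37 and -0.39 on its others, and PSBP and PSBQ have no other probe set. By the probe sets used, the Prasanna array without nitrogen lay below both others for 6 of the 41 genes, against 41.4% of all tested probe sets. They were LHCB2, LHCB6, LHCA4, PSBP, PSBQ and PSAH. By group these were 2 of 7 LHCB, 1 of 5 LHCA, 2 of 4 photosystem II and 1 of 8 photosystem I genes. The count is below the share of all tested probe sets and rests on 1 array against 2.

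Other members ran across these lines. LHCB4 had the largest Varadan response, 2.29 log2, and 0.35 log2 in Prasanna. PSBS went the other way, with 1.57 log2 in Varadan and 2.21 in Prasanna. Their Varadan values with the exchanged names were -0.00016 log2 for LHCB4 and 0.21 for PSBS. PSAL, a subunit of photosystem I that takes part in docking the mobile antenna, read 5.25 without nitrogen and 6.41 and 6.16 with nitrogen in Varadan, and 6.76 without nitrogen and 5.85 and 4.36 with nitrogen in Prasanna. The values of PSAL are low: 2 of its 6 readings, 5.25 and 4.36, were below the 40th percentile of their array, so no size is read from them.

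**Figure D3:**
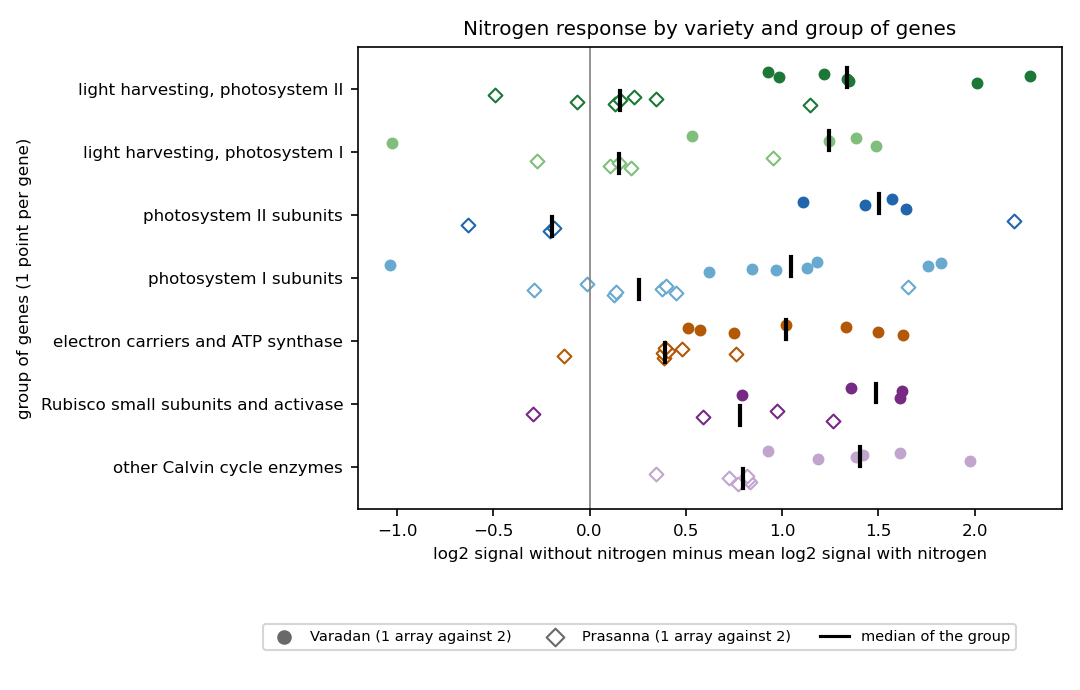
Nitrogen response of each photosynthesis gene (log2 signal without nitrogen minus the mean with nitrogen, names as in the log2 table) by group of genes; filled circles are Varadan and open diamonds Prasanna, 1 array against 2 in each, and black lines are group medians. Varadan medians lie between 1.02 and 1.50 in every group, while Prasanna medians run from -0.20 in photosystem II subunits to 0.80 in the other Calvin cycle enzymes.

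The difference between the 2 responses was tested directly. It had a median of 0.85 log2, Varadan minus Prasanna, and 37 of the 41 genes were above 0, against 49.1% of all tested probe sets. None passed the adjusted threshold in limma (0% of all tested probe sets; smallest adjusted p = 0.925), and 8 had an unadjusted p under 0.05 with the larger response in Varadan and 0 with the larger in Prasanna, against 2.7% and 2.65%. These were LHCB2, LHCB6, LHCA1, LHCA4, PSBO, PSBP, PSBQ and PSAH, with differences from 1.27 (LHCA1) to 1.85 log2 (PSBO). By group the median was 1.68 log2 for photosystem II subunits, 1.22 for LHCB, 1.09 for LHCA, 0.95 for photosystem I subunits, 0.74 for the electron carriers, 0.64 for the other Calvin cycle enzymes and 0.37 for Rubisco and activase. This order of groups was not kept without Varadan replicate 1, where the electron carriers had 0.77 log2, Rubisco and activase 1.08 and the other Calvin cycle enzymes 1.12.

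With the exchanged names the Varadan response and this difference were not the same. The median Varadan response over the 40 tested genes was -0.00063 log2, with 19 genes above 0 and 21 below (51.4% of all tested probe sets were above 0), and the difference of responses had a median of -0.34 log2, with 5 above 0 and 35 below (52.1% of all were above 0). At an unadjusted p under 0.05 there were 0 genes higher and 0 lower in Varadan, beside 0.982% and 2.45% of all tested probe sets. The group medians of the difference were all below 0, from -0.10 log2 (photosystem II subunits) to -0.71 (other Calvin cycle enzymes). By group the Varadan medians were then between -0.25 log2 (photosystem II subunits) and 0.51 (Rubisco and activase). Prasanna kept its values, since its columns are the same in both tables. What held under both namings is that the array given as Varadan without nitrogen read above Varadan replicate 2 with nitrogen: the median gap over the 41 genes was 1.61 log2 in the log2 table (39 genes above 0) and 0.73 log2 in the series matrix (39 genes above 0).

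The replicates with nitrogen also differed. In Varadan replicate 1 read above replicate 2 for 39 of the 41 genes, against 47% of all tested probe sets, by a median of 0.73 log2, and 14 genes were at least 1 log2 apart, against 22.6%. In Prasanna replicate 1 read higher for 30 genes, against 51%, by a median of 0.33 log2, and 6 were at least 1 log2 apart, against 17%. The gap of 0.73 log2 in Varadan stands beside a median response of 1.33 log2.

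Rubisco and activase had the largest gap between replicates in both varieties, with a median of 1.56 log2 in Varadan and 0.96 in Prasanna. Each of these 4 loci was at least 1.17 log2 apart in Varadan and at least 0.65 log2 apart in Prasanna. The LHCB genes had a median gap of 0.69 log2 in Varadan and -0.06 in Prasanna, where the 7 genes stayed within -0.32 and 0.24 log2. The other Calvin cycle enzymes had 0.98 log2 in Varadan and 0.44 in Prasanna, and the electron carriers 0.71 in Varadan and 0.60 in Prasanna.

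Varadan replicate 1 with nitrogen read between the array without nitrogen and replicate 2 for 38 of the 41 genes, against 22.5% of all tested probe sets. In Prasanna the same order was seen for 19 genes, against 17.6%. By group the Prasanna count was 5 of 6 for the other Calvin cycle enzymes, 3 of 4 for Rubisco and activase, 3 of 7 for the electron carriers, 3 of 8 for photosystem I subunits, 2 of 7 for LHCB, 2 of 5 for LHCA and 1 of 4 for photosystem II subunits.

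**Figure D4:**
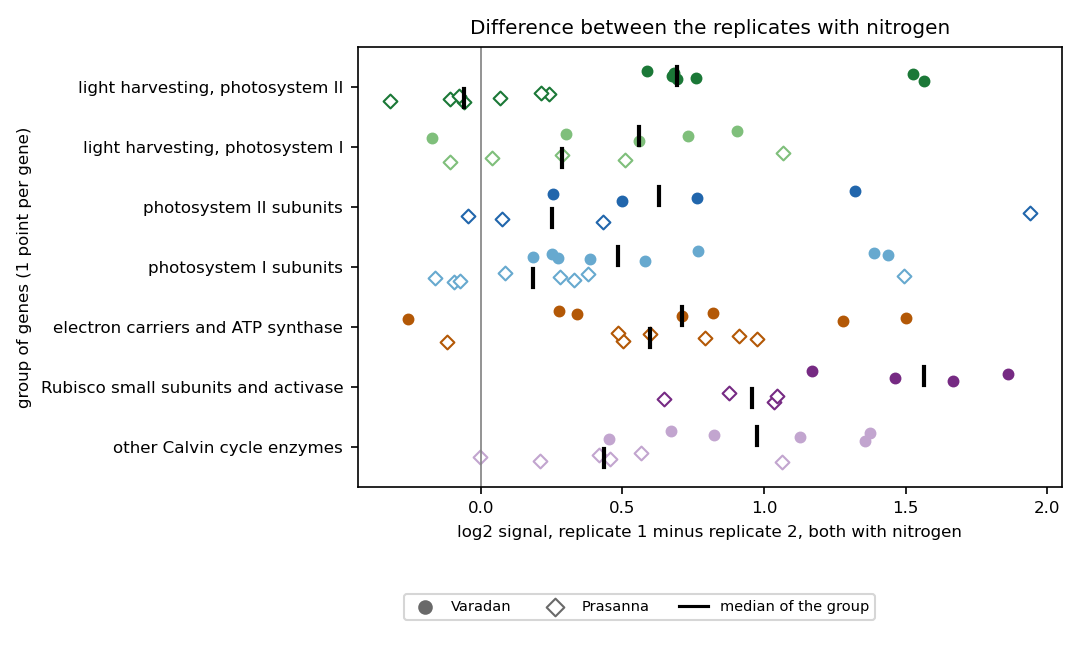
Log2 signal of replicate 1 minus replicate 2, both with nitrogen, for each photosynthesis gene by group; filled circles are Varadan, open diamonds Prasanna and black lines group medians. The Rubisco group lies farthest to the right in both varieties, with medians of 1.56 in Varadan and 0.96 in Prasanna, while the LHCB genes of Prasanna centre on -0.06.

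Genes around the photosynthetic apparatus were read from 7 further lists, none of whose 42 measured loci passed the adjusted threshold in limma in any comparison. The 7 measured loci of further photosystem genes had medians near those of the 41 for variety and for nitrogen over both varieties. These were 1.06 log2 for Varadan over Prasanna (6 above 0) and 0.87 log2 for the nitrogen response (5 above 0). At an unadjusted p under 0.05, 3 were higher and 1 lower in each, beside 5.31% and 5.41% of all tested probe sets for variety and 8.58% and 13% for nitrogen. The nitrogen median with the exchanged names was -0.07 log2, with 3 above 0. In Prasanna alone the likeness was absent: the nitrogen median was -0.26 log2 (3 above 0), against 0.38 for the 41 (31 above 0). PSBR, of this list, differed by -1.285 ± 0.314 log2 (SE) in Prasanna and 0.45 in Varadan, or -0.58 in Varadan with the exchanged names. LHCA6, an antenna-like protein, read 9.70 without nitrogen and 6.87 and 6.28 with nitrogen in Varadan, and 7.63 without nitrogen and 7.18 and 6.53 with nitrogen in Prasanna. Its Varadan response of 3.13 log2 was above that of each of the 41 genes, and with the exchanged names it was -1.13 log2. PSBY, a small photosystem II subunit, differed by 1.95 log2 in Varadan, or -0.19 with the exchanged names, and 0.58 in Prasanna. The small subunit gene RBCS1, the 1 lower locus, had a nitrogen difference of -0.87 ± 0.30 log2 (SE) over both varieties, or -0.07 with the exchanged names, and a variety difference of -0.88 ± 0.28 log2 (SE).

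The 12 chlorophyll synthesis genes had medians of 0.33 log2 for the variety difference (10 above 0) and 0.27 for the nitrogen response (9 above 0). At an unadjusted p under 0.05, 2 of the 12 were higher in Varadan and 1 without nitrogen, the second near the share of all tested probe sets, and 0 were lower. Their nitrogen median was 0.10 log2 with the exchanged names. CHLM, the magnesium protoporphyrin methyltransferase, stood out. It read 9.26 without nitrogen and 7.89 and 7.56 with nitrogen in Varadan, and 7.80 without nitrogen and 6.47 and 6.40 with nitrogen in Prasanna, so each array without nitrogen was above its variety's others and the replicates were close. Its nitrogen difference was 1.45 ± 0.27 log2 (SE; limma adjusted p = 0.123), or 0.43 ± 0.61 with the exchanged names, and its variety difference 1.35 ± 0.26 log2 (SE; adjusted p = 0.0635).

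Of the 4 chlorophyll breakdown genes, SGR, which starts the dismantling of chlorophyll by removing its magnesium, had the largest nitrogen difference, 2.53 ± 0.71 log2 (SE; limma adjusted p = 0.137), or 1.66 ± 1.01 with the exchanged names. It read 12.41 without nitrogen and 11.25 and 8.37 with nitrogen in Varadan, and 12.60 without nitrogen and 10.49 and 9.78 with nitrogen in Prasanna. Unlike the 41 genes the list was not higher in Varadan. Its 4 variety differences were all below 0, with a median of -0.18 log2, but each was smaller in size than its SE. The 3 regulators GLK1, GLK2 and CGA1, known to promote chloroplast development, had nitrogen differences of -0.66, 0.47 and -0.26 log2, and variety differences of -0.43, 0.54 and 0.59 log2. None of the 3 had an unadjusted p under 0.05 in either comparison with names as in the log2 table. GLK1 had a nitrogen difference of -1.38 ± 0.44 log2 (SE) with the exchanged names (limma unadjusted p = 0.0164, adjusted p = 0.735). With those names 3.49% of all tested probe sets were lower at an unadjusted p under 0.05.

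The 6 photorespiration genes had medians of 0.61 log2 for the variety difference and 0.53 for the nitrogen response, with 5 of 6 above 0 in both, and the nitrogen median was -0.13 log2 with the exchanged names. GS2, the plastid glutamine synthetase, was 1.22 ± 0.27 log2 (SE) higher in Varadan (limma adjusted p = 0.104). The 6 carotenoid synthesis genes had medians of 0.11 log2 for the variety difference and 0.10 for the nitrogen response (-0.06 with the exchanged names). PSY3, a phytoene synthase, had a nitrogen difference of 1.80 ± 0.52 log2 (limma adjusted p = 0.138), or 1.61 ± 0.61 with the exchanged names.

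Counterparts that serve the root plastid or the cytosol had lower values. Their medians were -0.22 log2 for the variety difference and 0.15 for the nitrogen response, over 4 loci, with 2 above 0 in each. The cytosolic FBPase had a variety difference of 0.59 ± 0.31 log2 (SE), beside 0.40 for the plastid FBPase. Its nitrogen difference was 0.68 ± 0.32 log2 (SE), and 0.68 with the exchanged names, beside 1.07 and 0.31 for the plastid FBPase. The root ferredoxin-NADP reductase in roots supplies reduced ferredoxin for nitrite reduction. This reductase read 11.77 without nitrogen and 11.51 and 13.49 with nitrogen in Varadan, and 11.42 without nitrogen and 13.58 and 14.08 with nitrogen in Prasanna. Its nitrogen difference was -1.57 ± 0.59 log2 (SE; limma adjusted p = 0.197), or -1.76 ± 0.51 with the exchanged names, where the leaf-type reductases LFNR1 and LFNR2 had 0.48 and 0.46 log2 (0.31 and 0.20 with the exchanged names). In Varadan its replicate 1 with nitrogen read close to the array without nitrogen and away from replicate 2.

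**Figure D5:**
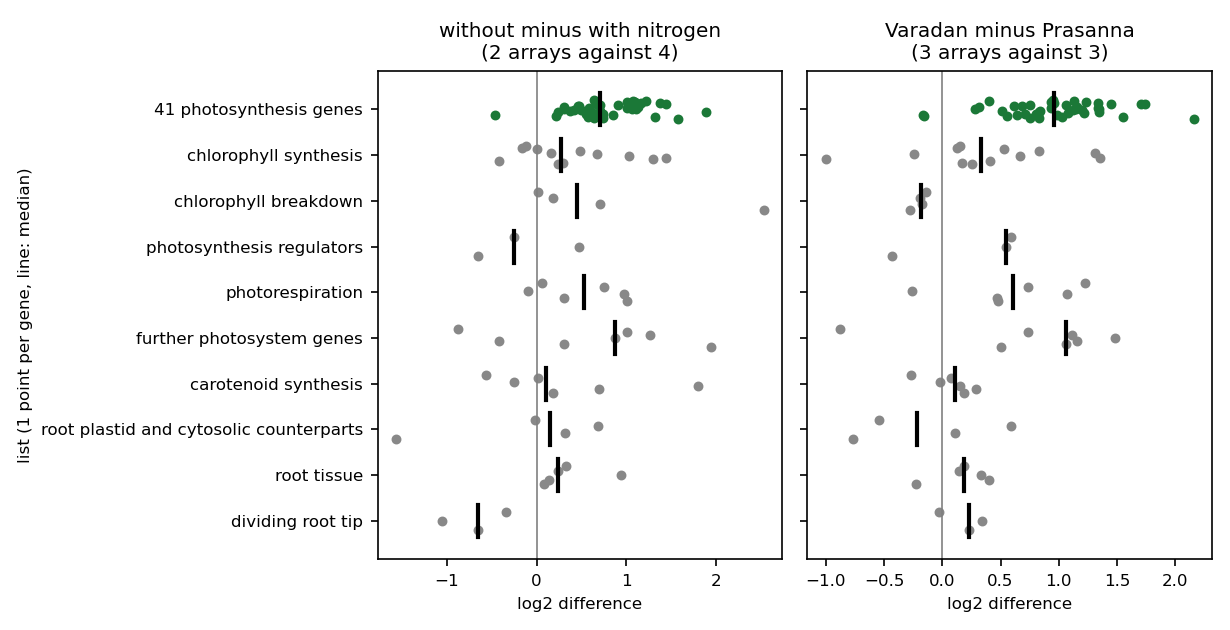
Differences in log2 signal for the 41 photosynthesis genes (green) and the other lists (grey), 1 point per gene with the list's median as a line; the left panel is without minus with nitrogen (2 arrays against 4, names as in the log2 table), the right panel Varadan minus Prasanna (3 against 3). The further photosystem genes are the nearest to the 41, with a median of 0.87 for nitrogen and 1.06 for variety beside 0.71 and 0.95 for the 41, and the root tissue genes lie at 0.24 for nitrogen and 0.19 for variety.

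Where loci had several probe sets, the others were read too. The 41 loci had 38 further probe sets, 30 of them in the filter. Of these 30, 28 were higher in Varadan. With names as in the log2 table, 29 were higher without nitrogen over both varieties and 29 were higher without nitrogen in Varadan. The sign of the Prasanna nitrogen response differed between probe sets of some loci, among them PSBO, LHCB6, ALDP and Os12g0292400. Of the 41 probe sets used, 16 are of types that can bind more than 1 transcript, 4 of them among the LHCB and LHCA genes and 3 in the Rubisco group.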

How the data were processed

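Root RNA of 2 rice varieties at 2 nitrogen supplies was measured on 6 Affymetrix rice arrays, grouped by their titles. The authors deposited MAS5 signals on the log2 scale, and a series matrix in which the deposited linear intensity of each probe set is the antilog of that value. MAS5 is named in the submitters' processing notes, and its version is not given in the sources used here. After trimming 2% at each end every array's linear mean was 500, and a change common to most genes would be scaled away. The tables agreed to within 1.98e-08 log2 for 4 arrays, and 2 Varadan columns were exchanged between them. The design text names 2 replicates each; a second array of either group lacking nitrogen was not analysed here.

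Of 57381 probe sets, 187 controls were left out and the 34316 with a mean log2 value at or above the 40th percentile were tested with limma 3.58.1 in R 4.3.3 (lmFit and eBayes with a trend, two-sided, Benjamini-Hochberg over all tested probe sets, threshold 0.05). The nitrogen response of both varieties and the variety difference came from an additive model, the responses of each variety and their difference from a model with 1 mean per group. The fits of the additive model were tested on simulated data with the same independent noise on every array. That simulation held no deviating array and no difference between the varieties' responses, so it does not cover these features of the data. No detection calls were used, and readings below the 40th percentile of their array were not taken as above background. With so few arrays the precision is low. Gene names came from a reference gene table (assembly ASM3414082v1). The members and lists were chosen with earlier results of these data known.

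Array values were printed for the 2 genes of each group with the highest mean and for those with the largest, smallest or lowest-p difference in a comparison. Os12g0292400 was added after its values were seen. Of other lists at most 3 genes each with the smallest p were named, besides all 3 regulators, PSBR and the cytosolic FBPase. LSI1, LSI2 and RCC3 serve as the tissue check. The locus Os01g0236300 was left out of the root list because its annotation differs from the role given. CHLH and CAB1R had no probe set of their own. Alternatives were another filter, no trend, robust variance, quantile normalization, the series matrix, the mean of all probe sets of a locus and leaving out each array.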

Additional observations from a re-analysis of the deposited data

How the results depend on the processing

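Values here are over the 40 tested genes. No gene was called in the nitrogen response of both varieties except without Varadan with nitrogen replicate 1 (8 genes) and in the series matrix without its Varadan with nitrogen array 1 (5 genes; chosen after seeing the data). The median response over both varieties was 0.38 to 1.34 log2 over the arrays left out, with 0 to 8 calls; the 1.34 came without the Prasanna array without nitrogen, which leaves the Varadan response alone. For the variety difference 1 gene was called with no filter on low signal (LHCB1 of Os01g0720500, limma adjusted p = 0.0455), 1 in the series matrix without its Varadan with nitrogen array 1, and 0 to 9 with an array left out, where the median ran from 0.74 to 1.27 log2. The Varadan response had a median of -0.00063 log2 in the series matrix and 0.75 in the series matrix without its Varadan with nitrogen array 1, and 0.88 to 1.65 with 0 to 4 calls over the arrays left out. The 4 calls came without Varadan replicate 1. The Prasanna response stayed between 0.19 and 0.47 log2 with 0 calls. The difference of responses was -0.34 log2 in the series matrix and 0.51 to 1.39 over the arrays left out, with 0 calls. The reversals follow from the exchanged names; the cause of the other shifts was not tested. Filters, quantile normalization, the variance settings and the mean over probe sets kept the direction of all 5 medians. No paired analysis was possible because the labels give only the number 2 of a replicate, so the groups share fewer than 2 numbers. With 1 array per variety without nitrogen and names that conflict, the nitrogen responses rest on single arrays, and low signals such as those of LHCA2 and PSAL are not reliable.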

Other observations

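The 10 probe sets outside the lists whose 6 values followed the mean of the photosynthesis genes most closely are given as a description over 6 arrays that share their scaling. The closest was Os04g0490800 (Pearson r = 0.997), which read 10.81 without nitrogen and 10.17 and 9.33 with nitrogen in Varadan, and 9.56 without nitrogen and 9.37 and 8.89 with nitrogen in Prasanna. Os09g0361500, whose synonym in the reference table is OsICS, had r = 0.995, Os03g0333400 r = 0.994 and Os08g0200300 r = 0.993. Os08g0200300 read 14.27 without nitrogen and 13.42 and 12.28 with nitrogen in Varadan, and 12.13 without nitrogen and 11.99 and 11.55 with nitrogen in Prasanna. Os04g0401000, with the synonym Pi21, had r = 0.988. In all 408 candidates, or 1.49%, reached r = 0.9. Of the 41 photosynthesis genes 31 reached 0.9 with the mean of the other 40; ATPC was the closest (0.998), and LHCB6 (0.38), PSAL (0.11) and LHCA2 (-0.63) were the farthest.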
